A study of Mus musculus with 18 samples.

Results

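The transcripts described here are those of 35 mouse genes of the motile cilium and of ependymal cells, out of 53468 genes counted. The members are a list of symbols, each matched to its Ensembl identifier by the GENCODE M21 annotation of GRCm38, and all 35 were found. The list is given by name, with no threshold on a measured value. They were followed gene by gene through 18 libraries of mouse brain.

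Motile cilia are beating, hair-like projections built on a ring of microtubule doublets around a central pair. Outer and inner dynein arms on the doublets slide them past each other, nexin links and radial spokes turn sliding into bending, and the central pair coordinates the beat. In the brain they are carried in tufts by ependymal cells, which line the ventricles and move the cerebrospinal fluid. Their genes are switched on together by the forkhead factor *Foxj1* and by factors of the RFX family, which bind the X-box motif in promoters.

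Poly(A) RNA of forebrain, midbrain and hindbrain was taken at postnatal day 25 from 3 Fmr1CRE knock-in mice and 3 wild-type (WT) mice of the same litter, so each of the 6 groups of region and genotype held 3 libraries. Fmr1CRE mice carry a single-base change, made with CRISPR/Cas9, in a conserved cis-regulatory element near *Fmr1*, the fragile X gene, on a C57BL/6 background; the WT mice lack it. Several founder lines were made, and which of them gave the sequenced mice is not given in the sources used here. Whole regions were dissected, so in all that follows fewer ependymal cells and less RNA per cell cannot be told apart.

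Between 22455512 and 28061185 counts fell on genes in each library. Levels are counts scaled to library size (CPM) after TMM scaling over the 18 libraries, and log2 values used a prior count of 2. *Fmr1* itself lay between 69.1 and 83.3 CPM in forebrain, 61.6 and 74.1 CPM in midbrain and 51.2 and 69.8 CPM in hindbrain, with no genotype call in any region (log2 fold change -0.00, 0.01 and 0.15 in forebrain, midbrain and hindbrain, adjusted p = 0.996, 0.995 and 0.906, edgeR). Region markers set forebrain apart from hindbrain, with 10 of 10 forebrain markers higher and 12 of 12 hindbrain markers lower in forebrain. Forebrain markers set forebrain less apart from midbrain. Of the 10, 6 were higher in forebrain than in midbrain, with a median log2 fold change of 0.75, beside 5.59 against hindbrain. Also, 9 of 10 forebrain markers were higher in midbrain than in hindbrain libraries. Of 10 midbrain markers, 9 were lower in forebrain than in midbrain (median -4.39). How much forebrain tissue the midbrain pieces held was not tested. The replicate 3 mice were out of step in forebrain. Of 23 genes at least 3 log2 units apart between the Fmr1CRE and WT replicate 3 mice with 1 sign in midbrain and hindbrain alike, 10 were that far apart in the opposite direction in forebrain and 2 in the same direction. The corresponding counts were 2 opposite and 9 the same of 20 genes for replicate 1, and 5 and 5 of 17 for replicate 2. None of these genes was a member. At this limit, set after the data were seen, the forebrain libraries labelled replicate 3 thus went against their mice's other regions more often than with them. Whether their genotype labels are exchanged was not tested. The genotype values in forebrain therefore rest on labels that are uncertain for 1 library of each genotype. The same labels enter the interaction and whatever pairs forebrain with another region by mouse. These are the counts of mice, the exact sign tests and the fits with the mouse as a block. Counts of members called are also given without replicate 3 of both genotypes.

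All 35 members were detected, at low levels. *Ccdc39*, which with *Ccdc40* forms the molecular ruler that spaces the dynein arms, was the member with the most reads, 316 to 683 counts in a library. At the other end lay *Sntn*, which encodes sentan of the ciliary tip, with 4 to 30 counts, and *Spag17* of the central pair, with 5 to 73 counts. Between genes only levels per length can be compared. Per kilobase of effective transcript length, *Ccdc153* and *Rarres2*, both used as markers of ependymal cells, led the set with 18.7 CPM per kilobase each as a mean over 18 libraries, followed by *Ccdc39* at 15.4, the nexin link gene *Drc1* at 13 and the radial spoke head gene *Rsph9* at 12.6. *Foxj1* ranked number 8 at 4.89 CPM per kilobase. The dynein heavy chains, which are among the longest transcripts of the set, lay between 0.278 (*Dnah12*) and 0.870 (*Dnah11*), and *Hydin* and *Spag17* were lowest at 0.200 and 0.171. This order rests on effective lengths, which for some members lay far under the main coding transcript and for *Foxj1* over it. The effective length of *Drc1* was 745 bases, with 91.8% of its reads on a coding transcript of 2471 bases. That of *Ccdc39* was 1155 bases, with 55.0% on a coding transcript of 3606 bases. That of *Foxj1* was 3497 bases, longer than its only transcript of 2623 bases. The ranks of such members are therefore uncertain, and an order by the length of the main transcript was not tested. The spread between libraries was wide beside the gaps between neighbours: *Ccdc153* in forebrain had 24.4 ± 5.35 CPM per kilobase (SD, n = 6) and *Rarres2* 20.5 ± 3.31, which overlap, whereas *Drc1* in hindbrain (8.0 ± 4.2) varied by more than its distance from *Rsph9* (10.1 ± 1.91).

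**Figure D1:**
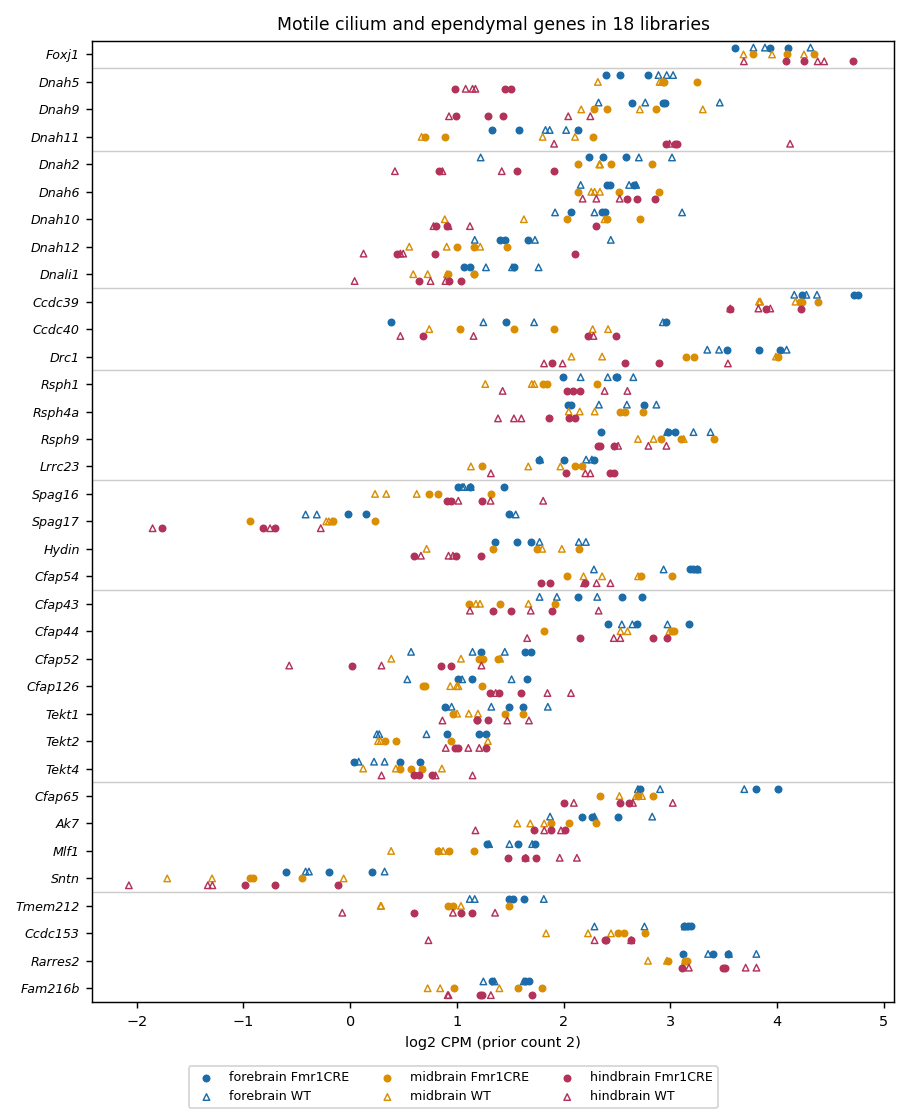
Level of each of the 35 genes (rows, grouped by role from Foxj1 at the top to ependymal markers at the bottom) in the 18 libraries. The x axis is log2 CPM, each point is a library, filled circles are Fmr1CRE and open triangles WT, and colour gives the region; most rows show overlapping regions, while Dnah5 in hindbrain lies to the left of all other Dnah5 values and Dnah11 in hindbrain mostly to the right.

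Part of this signal did not come from coding transcripts. Pooled over the 18 sets of transcript estimates, all reads of *Foxj1*, *Dnah5*, *Dnah12*, *Dnali1*, *Rsph1*, *Rsph4a*, *Tekt1*, *Tekt4*, *Mlf1*, *Sntn* and *Tmem212* were placed on protein-coding transcripts. *Cfap126*, which encodes the basal body protein Flattop, had 52.1% on protein-coding transcripts and 46.3% on a single transcript annotated for nonsense-mediated decay. *Dnah11* had 54.7% on its 14072-base coding transcript and 41.1% on a decay transcript of 8260 bases. *Ccdc39* had 55.0% on coding transcripts and 45.0% on retained introns, and *Dnah10* 35.1% on retained introns. Exons of some members also overlap genes on the other strand. For *Rarres2*, 33.6% of exonic bases lie in *Lrrc61*, for *Tekt2* 20.8% in *Gm12945*, for *Ccdc39* 16.9% in *Ttc14* and for *Spag17* 15.7% in *Spag17os* or *Wdr3*. Smaller shares lie in such genes for other members, among them *Cfap52* (8.36%), *Dnah11* (4.44%), *Cfap65* (3.67%) and *Dnah9* (3.10%). Whether strand was used in counting is not given in the sources used here, so values of these genes are uncertain to that extent. For *Cfap43*, 2.32% lie in *Itprip* or *Gm22240* on its own strand, which strand would not resolve.

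Promoters of 29 of the 35 members were in the RefSeq-based table for GRCm38.p6 (250 bases before to 50 bases after a gene's start), and both strands were searched for 4 motifs. The X-box, the full RFX site, was found in 5 members (*Lrrc23*, *Spag16*, *Hydin*, *Cfap44* and *Tekt2*) and in 1.75% of all 27025 genes with a promoter. The RFX half-sites GTTGCC and GTTACC, which can lie within an X-box, were found in 12 and 9 members against 14.1% and 8.16% of all genes. The forkhead motif GTAAACA was found in *Cfap43*, *Ak7*, *Mlf1* and *Sntn* and in 4.05% of all genes. A match describes these letters only. Below are the promoters of the members that hold an X-box or GTAAACA and were among those furthest apart between regions, since they let promoter and regional level be read together. Capitals mark the motif matches, both strands included, and all are written along the gene's own strand.
*Hydin* (chr8:110266727-110267026, plus strand): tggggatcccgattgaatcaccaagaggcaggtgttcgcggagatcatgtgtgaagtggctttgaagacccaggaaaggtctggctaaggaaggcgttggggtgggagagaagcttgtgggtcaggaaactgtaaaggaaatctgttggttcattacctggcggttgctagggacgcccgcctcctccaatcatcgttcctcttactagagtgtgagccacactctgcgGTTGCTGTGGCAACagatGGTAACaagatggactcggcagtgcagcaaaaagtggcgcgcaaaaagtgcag
*Spag16* (chr1:69826720-69827019, plus strand): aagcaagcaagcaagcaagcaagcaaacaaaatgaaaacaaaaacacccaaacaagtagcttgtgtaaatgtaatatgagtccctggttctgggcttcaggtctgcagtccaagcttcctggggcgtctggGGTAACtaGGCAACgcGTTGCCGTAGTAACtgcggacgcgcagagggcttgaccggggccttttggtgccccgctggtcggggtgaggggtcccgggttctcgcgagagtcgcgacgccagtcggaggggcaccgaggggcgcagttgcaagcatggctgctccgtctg
*Mlf1* (chr3:67373847-67374146, plus strand): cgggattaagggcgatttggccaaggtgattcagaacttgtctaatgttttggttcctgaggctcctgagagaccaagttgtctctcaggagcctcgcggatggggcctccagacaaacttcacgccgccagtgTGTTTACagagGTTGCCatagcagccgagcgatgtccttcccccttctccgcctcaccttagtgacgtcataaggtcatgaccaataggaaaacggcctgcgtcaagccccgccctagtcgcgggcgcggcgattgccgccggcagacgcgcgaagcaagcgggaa
*Cfap43* (chr19:47837312-47837611, minus strand): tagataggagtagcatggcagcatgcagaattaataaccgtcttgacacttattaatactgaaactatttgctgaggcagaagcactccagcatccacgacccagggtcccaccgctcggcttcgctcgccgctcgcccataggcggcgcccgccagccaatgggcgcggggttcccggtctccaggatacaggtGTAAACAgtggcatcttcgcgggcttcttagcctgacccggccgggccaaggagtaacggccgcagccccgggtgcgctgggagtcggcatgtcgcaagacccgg
In *Hydin* the X-box started 21 bases before the gene's start, overlapping a GTTGCC match on the minus strand. *Spag16* held its X-box 103 bases before the start, with further half-sites at 111 and 119 bases. *Mlf1* held GTAAACA at 116 bases and GTTGCC at 105 bases before the start, and *Cfap43* held GTAAACA at 55 bases before it. The RefSeq start of *Cfap43* lies inside the longer GENCODE gene. As given below, *Hydin* was higher and *Spag16* lower in midbrain than in hindbrain, so these 2 members with an X-box did not share a direction there. The *Spag16* call was lost in 6 of 14 alternatives. The other X-box members, *Lrrc23*, *Cfap44* and *Tekt2*, had log2 fold changes of -0.40, 0.24 and -0.47 in that comparison and were not called.

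The regions were compared first, each with 6 libraries from 6 mice, to ask whether motile cilium genes are expressed to the same extent along the brain. Most differences set forebrain above hindbrain. Against hindbrain, 19 members were higher in forebrain and 1, *Dnah11*, was lower (edgeR quasi-likelihood test, adjusted p under 0.05). Of all 20363 genes tested, 26.4% were higher and 25.3% lower in that comparison, and the median log2 fold change was 0.58 over the members and -0.01 over all genes. Without replicate 3 of both genotypes 11 members were higher and 3 lower. In the WT libraries alone 9 were higher and 1 lower, and without WT replicate 3 the counts were 12 and 3. Scaled to total counts, which moves the median of all genes to -0.15, 14 were higher and 5 lower.

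Among the dyneins, heavy chains differed between regions in both directions. *Dnah5*, the main outer arm heavy chain, had a lowest, median and highest level of 5.18, 7.09 and 8.06 CPM in forebrain, 4.93, 7.53 and 9.44 CPM in midbrain and 1.90, 2.16 and 2.78 CPM in hindbrain. Hindbrain therefore did not overlap the other regions, and forebrain and midbrain overlapped each other. The level was 2.96-fold higher in forebrain than in hindbrain (log2 1.56 ± 0.14 SE, adjusted p = 1.18e-07) and 3.22-fold higher in midbrain than in hindbrain (1.69 ± 0.14, adjusted p = 9.42e-08), in 6 of 6 mice each. *Dnah9*, the partner outer arm chain, behaved alike, with medians of 7.14, 5.85 and 2.5 CPM in forebrain, midbrain and hindbrain. Forebrain and hindbrain did not overlap, and a single hindbrain library (4.69 CPM) exceeded the lowest midbrain one (4.42 CPM). It was 2.57-fold higher in forebrain than in hindbrain (adjusted p = 0.000301; 0.0572 in WT libraries alone).

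*Dnah11*, a further outer arm heavy chain, went the other way. Its lowest, median and highest levels were 2.43, 3.52 and 4.31 CPM in forebrain, 1.51, 2.60 and 4.77 CPM in midbrain, and 3.68, 8.03 and 17.3 CPM in hindbrain. The highest value was that of WT hindbrain replicate 1 and the lowest hindbrain value that of WT replicate 3, so the hindbrain libraries were far apart. On the log2 scale *Dnah11* differed by -1.35 ± 0.35 in forebrain against hindbrain (adjusted p = 0.00425) and by -1.61 ± 0.36 in midbrain against hindbrain (adjusted p = 0.00143), lower than hindbrain in 6 of 6 mice in both. Alternative fits kept this call, with adjusted p from 0.000366 to 0.0479 and from 2.01e-05 to 0.0268.

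Among the inner arm dyneins, 4 of 5 were higher in forebrain than in hindbrain and 2 of 5 in midbrain than in hindbrain. *Dnah2* ranged from 2.25 to 8.01 CPM in forebrain (median 5.51), from 4.32 to 7.0 CPM in midbrain (median 4.99) and from 1.26 to 3.68 CPM in hindbrain (median 2.18). Midbrain and hindbrain did not overlap, and only WT replicate 1 of forebrain lay within the hindbrain range. The difference was 1.25 ± 0.27 on the log2 scale for forebrain and 1.21 ± 0.27 for midbrain against hindbrain (adjusted p = 0.00116 and 0.00166). *Dnah10* ranged from 3.70 to 8.56 CPM in forebrain, from 1.78 to 6.5 CPM in midbrain and from 1.65 to 4.85 CPM in hindbrain, where 5 libraries lay at or under 2.10 CPM and Fmr1CRE replicate 3 was alone above. It was higher in forebrain (1.2 ± 0.30, adjusted p = 0.00331) and midbrain (0.88 ± 0.30, adjusted p = 0.0244) than in hindbrain; the midbrain call was lost in 5 alternatives, among them the fits without Fmr1CRE replicate 1 or 2 or without WT replicate 1 or 2. *Dnah6*, also an inner arm chain, had overlapping levels in all regions and differences of -0.03 and -0.11 against hindbrain.

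The axis of the cilium followed in part. In the central apparatus 3 of 4 members were higher in forebrain than in hindbrain. *Spag17* differed most, 3.22-fold higher (log2 1.69 ± 0.44, adjusted p = 0.00443), yet its levels overlapped: 0.661, 0.963 and 2.85 CPM as lowest, median and highest in forebrain and 0.198, 0.509 and 0.760 CPM in hindbrain. The 2 highest forebrain values, WT replicate 3 and Fmr1CRE replicate 1, lay far from the other 4, and without WT replicate 3 the log2 difference was 0.99 (adjusted p = 0.0521). *Hydin*, whose loss causes hydrocephalus in mice, was between 2.49 and 4.54 CPM in forebrain, 1.57 and 4.36 CPM in midbrain and 1.43 and 2.27 CPM in hindbrain. It was higher than hindbrain in both (0.91 ± 0.21, adjusted p = 0.00199, and 0.80 ± 0.21, adjusted p = 0.00557), in 6 of 6 mice each, and in WT libraries alone the midbrain difference had an adjusted p of 0.0891. *Spag16* lay at 1.94, 2.06 and 2.64 CPM in forebrain, at 1.09, 1.53 and 2.43 CPM in midbrain and at 1.80, 2.11 and 3.44 CPM in hindbrain. It was lower in midbrain than in hindbrain (-0.55 ± 0.17, adjusted p = 0.0150). That call was lost in 6 of 14 alternatives: with the mouse as a block (adjusted p = 0.0530), without a filter on low counts (0.0678), and without Fmr1CRE replicate 1 or 3 or WT replicate 1 or 2 (up to 0.114, at -0.40, without WT replicate 2), while in WT libraries alone the difference was -1.06.

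Of the radial spoke genes, *Rsph4a* and *Rsph9* were higher in forebrain (0.72 and 0.44 on the log2 scale) and in midbrain (0.65 and 0.46) than in hindbrain, and *Rsph1* and *Lrrc23* passed the test in neither. *Ccdc39* and *Drc1* were higher in forebrain than in hindbrain (0.59 and 1.16), while *Ccdc40*, which ranged from 1.23 to 7.70 CPM within forebrain alone, did not pass the test. Of the 7 doublet and tether genes only *Cfap43* and *Cfap52* were higher in forebrain than in hindbrain (0.57 and 0.75), and the tektins *Tekt1*, *Tekt2* and *Tekt4*, filament proteins of the doublet wall, had differences of 0.09, -0.32 and -0.45 that did not pass the test. *Cfap65*, *Ak7* and *Sntn* were higher in forebrain (0.87, 0.58 and 1.0).

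**Figure D2:**
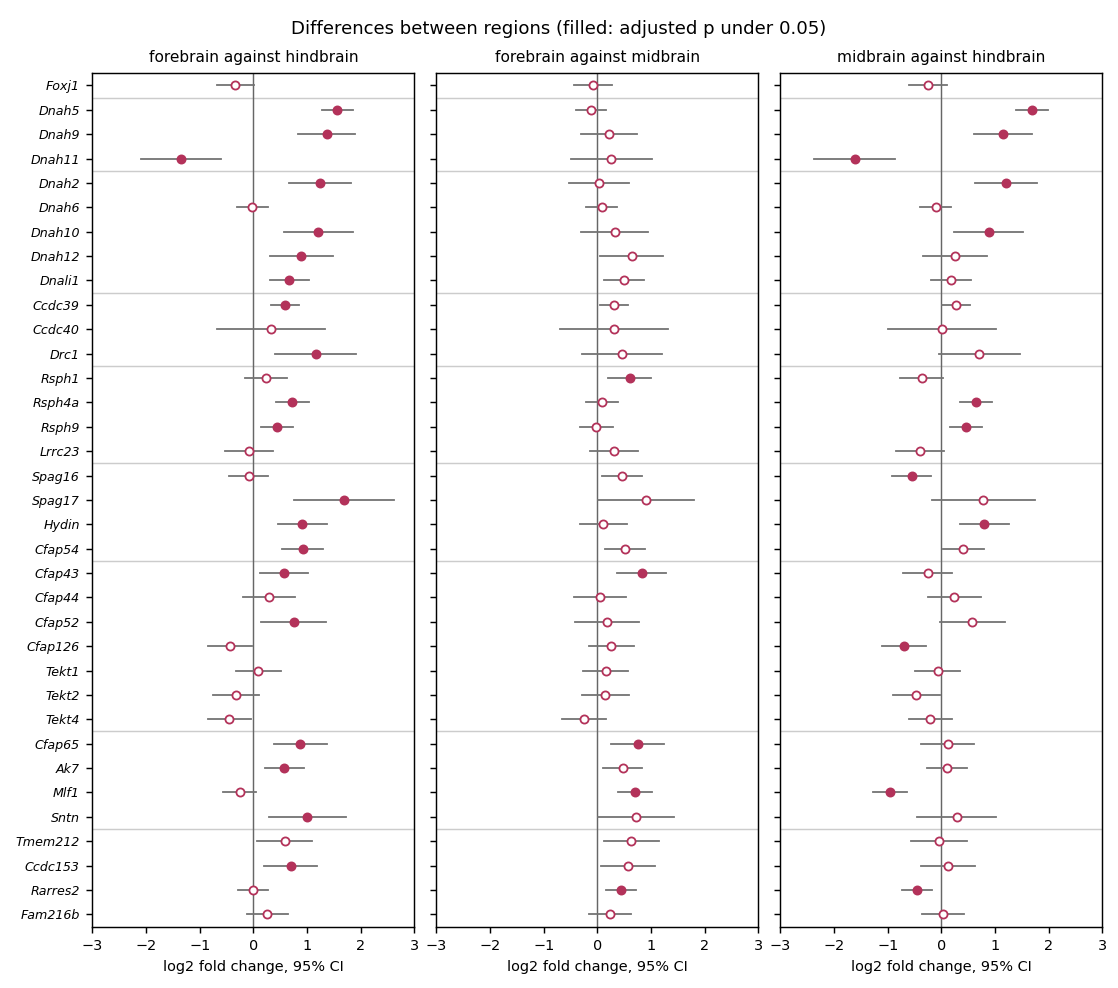
Log2 fold change (x axis) of each gene (rows, same order as in the plot of levels) for the 3 pairs of regions, with 95% confidence intervals; filled points have an adjusted p under 0.05. Against hindbrain the forebrain panel holds 19 filled points to the right of 0 and Dnah11 alone to the left, and the forebrain against midbrain panel holds 5, all to the right.

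In forebrain against hindbrain 25 members had a positive and 10 a negative log2 fold change, *Tekt4* (-0.45), *Cfap126* (-0.44) and *Tekt2* (-0.32) among the latter. *Foxj1* was also negative there. Its lowest, median and highest levels were 12.1, 15.0 and 19.8 CPM in forebrain, 12.8, 16.2 and 20.3 CPM in midbrain and 12.8, 19.9 and 26.1 CPM in hindbrain, and the regions overlapped. No region pair passed the test, with log2 differences of -0.34 (forebrain against hindbrain, adjusted p = 0.103), -0.08 (forebrain against midbrain, 0.785) and -0.25 (midbrain against hindbrain, 0.220). *Foxj1* was lower in midbrain than in hindbrain in 6 of 6 mice, for which a two-sided exact permutation of signs over the mice gave p = 0.03125, the smallest that 6 mice allow, unadjusted for the 3 pairs. The forebrain against hindbrain difference passed at -0.62 without replicate 3 of both genotypes, at -0.53 without WT replicate 3 and at -0.48 when scaled to total counts, always with hindbrain the higher.

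Midbrain against hindbrain split the set. Here 7 members were higher in midbrain (*Dnah5*, *Dnah9*, *Dnah2*, *Dnah10*, *Rsph4a*, *Rsph9* and *Hydin*) and 5 lower (*Dnah11*, *Mlf1*, *Cfap126*, *Spag16* and *Rarres2*), while 25.1% of all genes were higher and 24% lower, and the members' median was 0.12 against -0.03 over all genes. Without replicate 3 of both genotypes the counts were again 7 higher and 5 lower, with a median of -0.01. *Mlf1*, a small protein with adaptor roles, was at 1.22, 1.73 and 2.16 CPM in midbrain and at 2.71, 3.16 and 4.30 CPM in hindbrain, with no overlap (-0.96 ± 0.15, adjusted p = 7.04e-05, lower in 6 of 6 mice). *Cfap126* was at 1.53, 1.87 and 2.27 CPM in midbrain and at 2.40, 2.76 and 4.12 CPM in hindbrain, again apart in every library (-0.70 ± 0.19, adjusted p = 0.00738; 0.0583 without WT replicate 1). *Rarres2*, which encodes chemerin, was at 6.84, 8.25 and 8.83 CPM in midbrain and at 8.55, 11.3 and 13.9 CPM in hindbrain, where only the lowest hindbrain library lay in the midbrain range (-0.45 ± 0.13, adjusted p = 0.00864; 0.0823 without WT replicate 1 and 0.0514 without Fmr1CRE replicate 3).

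Between forebrain and midbrain fewer members differed. Against a background of 9.38% of genes higher and 9.96% lower, 5 members were higher in forebrain (*Cfap43*, *Cfap65*, *Mlf1*, *Rsph1* and *Rarres2*), 0 were lower and 31 of 35 had a positive log2 fold change (median 0.31; 0.02 over all genes). The mice give the pairing here, and with the mouse as a block 2 members passed in place of 5, with the median at 0.33. In WT libraries alone 0 passed, with the median at 0.46, and without WT replicate 1 the count was 1. Without replicate 3 of both genotypes it was 5, with 0 lower, but *Rsph1* and *Rarres2* were not among them. *Mlf1* differed most firmly, at 2.34, 2.82 and 3.24 CPM in forebrain above every midbrain library (0.70 ± 0.15, adjusted p = 0.00376; 0.0567 in WT libraries alone). *Cfap43*, which tethers inner arm dyneins to the doublet, was at 3.34, 4.59 and 6.58 CPM in forebrain and 2.09, 2.41 and 3.70 CPM in midbrain (0.83 ± 0.22, adjusted p = 0.0133), higher in 6 of 6 mice with 1 forebrain library inside the midbrain range. Its adjusted p was 0.0804 without Fmr1CRE replicate 2 and 0.10 without WT replicate 1. *Cfap65* (0.75), *Rsph1* (0.60) and *Rarres2* (0.44) had adjusted p of 0.0323, 0.0347 and 0.0256, which with the block were 0.0713, 0.0666 and 0.0513. Their calls were lost in 7, 9 and 9 of 14 alternatives.

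Transcript length moved with the differences from hindbrain. Of the 10 members with an effective length of 5000 bases or more (*Hydin*, *Spag17*, *Cfap65* and all dynein heavy chains), 8 were higher in forebrain than in hindbrain and 1 was lower, and of the 25 shorter members 11 were higher and 0 lower. All genes showed the same order. Among 1450 genes of that length 52.5% were higher in forebrain than in hindbrain and 14% lower, and among 18889 shorter genes 24.4% and 26.2%. For midbrain against hindbrain the shares were 60.1% and 8.14% of long genes and 22.4% and 25.2% of shorter genes, while 5 long members were higher and 1 was lower, and 2 shorter members were higher and 4 lower. Forebrain against midbrain did not show this order. There 8.62% of long genes were higher and 16.1% lower, and 9.43% and 9.50% of shorter genes. Of the members 1 long and 4 shorter ones were higher in that comparison, and 0 of either class were lower. The deposited counts were corrected for differences in transcript length between libraries, not between genes. The classes follow effective length, which for some members lay far under the transcript with most reads. *Cfap54* counted as shorter at 2591 bases, with 61.7% of its reads on a transcript of 9903 bases. *Cfap43* did so at 2207 bases, with 60.9% on a transcript of 5264 bases. Both were higher in forebrain than in hindbrain. *Cfap44*, not called there, did so at 2492 bases, with most reads on a transcript of 6583 bases. The split of the members by length is uncertain to that extent. The part of length in the members' differences was not tested.

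**Figure D3:**
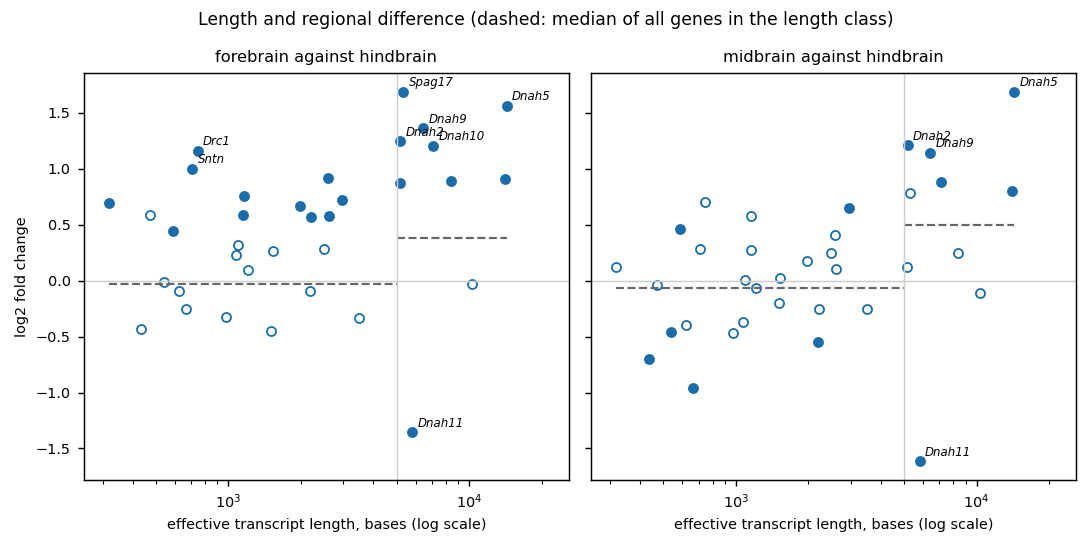
Log2 fold change of each of the 35 genes (points, filled where adjusted p is under 0.05) against effective transcript length on a log axis, for forebrain and for midbrain against hindbrain. Dashed lines are medians of all genes under and over 5000 bases, 0.38 for long genes on the left panel and 0.50 on the right; Dnah5 lies above and Dnah11 far below them.

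Other lists give the surroundings. Of 78 further motile cilium genes tested, 31 were higher and 3 lower in forebrain than in hindbrain (median 0.40), with *Dnal1*, an outer arm light chain and the most counted gene of that list, 1.55 ± 0.14 higher on the log2 scale. Of these 78, 12 were higher and 1 lower in forebrain than in midbrain, and 17 higher and 12 lower in midbrain than in hindbrain. *Dnah7b* (-1.32) and *Dnah8* (-1.08) were heavy chains that, as *Dnah11*, were lower in forebrain than in hindbrain. They are named for that direction. The list also held the heavy chains *Dnah1*, *Dnah3*, *Dnah7a* and *Dnah7c*, whose values are not given here. Of 42 genes of intraflagellar transport and of the primary cilium, which neurons also carry, 16 were higher and 5 lower in forebrain than in hindbrain, 5 and 4 in forebrain than in midbrain, and 19 and 7 in midbrain than in hindbrain. Of 10 regulators of multiciliated cell fate that could be tested (13 listed), 4 were higher and 2 lower in forebrain than in hindbrain, 0 differed between forebrain and midbrain, and 3 were higher and 2 lower in midbrain than in hindbrain. *Rfx3*, the most counted of them, was at 45.1 to 66.6 CPM in forebrain, 37.5 to 55.3 CPM in midbrain and 15.8 to 27.7 CPM in hindbrain. *Rfx2* lay between 2.02 and 5.12 CPM throughout.

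Neighbouring cell types moved too. Choroid plexus epithelium, which grows from the same lining and carries cilia of its own, had its highest level in hindbrain: of 19 markers 11 were lower in forebrain than in hindbrain (median -0.99), and 16 lower in midbrain than in hindbrain (-1.70), while 8 were higher and 1 lower in forebrain than in midbrain (0.72). Their summed level was 427 to 940 CPM in forebrain, 213 to 551 CPM in midbrain and 984 to 3395 CPM in hindbrain, most of it *Ttr*, and none of the 19 was at 0 in any library. Of 10 neuroblast and proliferation markers 8 were higher and 1 lower in forebrain than in hindbrain, 7 and 0 in forebrain than in midbrain, and 6 and 1 in midbrain than in hindbrain. Of 10 leptomeningeal and fibroblast markers 0 were higher and 5 lower, 0 and 6, and 1 and 2 in the same comparisons, and of 5 tanycyte markers tested 3 and 0, 1 and 1, and 2 and 0. Tanycytes are elongated cells that line the ventricle floor. The part of these cell types in the members' differences was not tested.

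**Figure D4:**
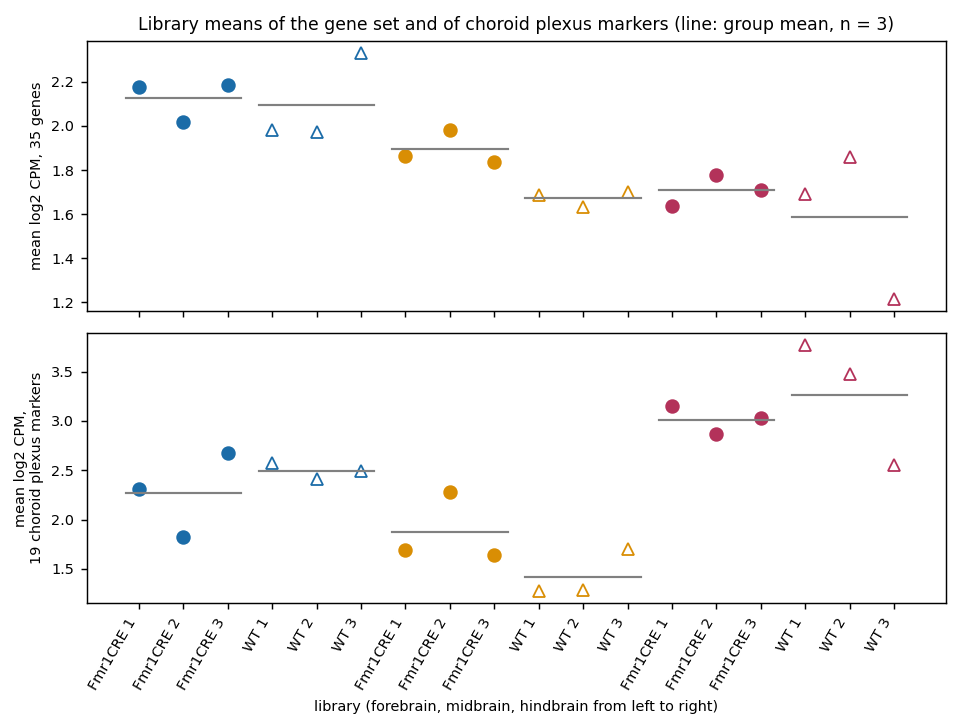
Mean log2 CPM (y axes) of the 35 genes (upper panel) and of 19 choroid plexus markers (lower panel) in each library (x axis), with filled circles for Fmr1CRE, open triangles for WT and a line for each group mean. WT hindbrain replicate 3 is lowest in its region in both panels, at 1.22 for the 35 genes, and the 3 WT midbrain libraries lie between 1.63 and 1.70, under the 3 Fmr1CRE ones.

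Some libraries stood apart from their group. WT hindbrain replicate 3 had the lowest value of its region for 18 of 35 members and the highest for 1. Its members summed to 113 CPM, against 141 to 171 CPM in the other 5 hindbrain libraries. *Ccdc153* was at 1.58 CPM there and at 4.83 to 6.13 CPM in the others, and *Cfap52* at 0.594 CPM against 0.928 to 2.28 CPM. The choroid plexus markers were also lowest in that library, with *Ttr* at 863 CPM against 1315 to 3155 CPM. WT forebrain replicate 3 had the highest value of its region for 12 members and Fmr1CRE midbrain replicate 2 for 15.

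The genotypes were then compared within each region, 3 Fmr1CRE against 3 WT libraries, to ask whether the knock-in moved cilium genes. No member passed the test in any region. By edgeR 0 of 35 members were called in forebrain, midbrain and hindbrain, where 0%, 0.00543% and 0% of all genes tested were called. At an unadjusted p under 0.05 there were 1, 1 and 2 members and 1002, 1135 and 981 genes. DESeq2 called 31, 62 and 59 genes and 0 members in each. Without replicate 3 of both genotypes 0 members were called in each region by edgeR. These comparisons were wide: the 95% confidence interval of a member's log2 fold change reached a median of 0.58 to either side in forebrain, 0.62 for midbrain and 0.68 for hindbrain, from 0.32 for *Ccdc39* in midbrain to 1.58 for *Spag17* in forebrain. Larger differences also went uncalled after adjustment, such as 0.77 for *Tekt2* in forebrain and 1.12 for *Sntn* in hindbrain.

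For *Foxj1* the Fmr1CRE values were 12.1, 15.2 and 17.2 CPM in forebrain, 13.6, 20.3 and 17 CPM in midbrain and 16.9, 26.1 and 18.9 CPM in hindbrain. The WT values were 14.7, 13.7 and 19.8, then 19, 15.4 and 12.8, then 20.8, 21.7 and 12.8 CPM. The genotypes overlapped in every region. Log2 fold changes were -0.09 ± 0.19, 0.11 ± 0.19 and 0.15 ± 0.24 (adjusted p = 0.925, 0.936 and 0.947), and an exact two-sided permutation test gave p = 0.7 in each region, where 3 against 3 cannot go below 0.1.

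In midbrain the members leaned one way without a call. The log2 fold change was positive for 28 of 35 members, with a median of 0.25 against -0.00 over all genes, and 8 members had all 3 Fmr1CRE values above all 3 WT values (6.23% of genes did), with 0 the other way (5.05% of genes). The 8 were *Dnah5*, *Dnali1*, *Ccdc39*, *Rsph1*, *Rsph4a*, *Spag16*, *Ak7* and *Ccdc153*, and several gaps were slight, such as 1.81 against 1.79 CPM for *Dnali1*. Summed over the 35 members, Fmr1CRE libraries held 171, 179 and 171 CPM and WT libraries 160, 143 and 145 CPM. The members share their cells and libraries, so they are not separate evidence. Leaving out a library moved the median between 0.22 and 0.28, and without replicate 3 of both genotypes it was 0.30.

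The 3 members with the smallest p in midbrain were *Rsph4a*, *Ccdc39* and *Spag16*. *Rsph4a*, a radial spoke head protein, was at 6.64, 5.87 and 5.70 CPM in Fmr1CRE and at 4.05, 4.36 and 4.83 CPM in WT (0.46 ± 0.16, unadjusted p = 0.0246, adjusted p = 0.803, edgeR). *Ccdc39* was at 18.7, 18.5 and 20.8 against 14.1, 14.3 and 18.0 CPM (0.32 ± 0.14, adjusted p = 0.806, edgeR). *Spag16* was at 1.59, 2.43 and 1.69 against 1.09, 1.18 and 1.47 CPM (0.60 ± 0.27, adjusted p = 0.806, edgeR). None of the 3 overlapped, and none passed the adjusted test. Beside them, 15 of 19 choroid plexus markers (median 0.46, 0 called) and 10 of 10 neuroblast and proliferation markers (median 0.39, 0 called) were also positive in midbrain. Choroid plexus markers summed to 370, 551 and 273 CPM in Fmr1CRE and to 218, 213 and 388 CPM in WT midbrain, which overlap. Of 10 forebrain markers 6 were positive in midbrain (median 0.07, 0 called). *Adora2a*, named after its values were seen, was at 8.79, 24.7 and 7.59 CPM in Fmr1CRE and 2.44, 2.81 and 2.47 CPM in WT. The part of these lists in the members' values was not tested.

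**Figure D5:**
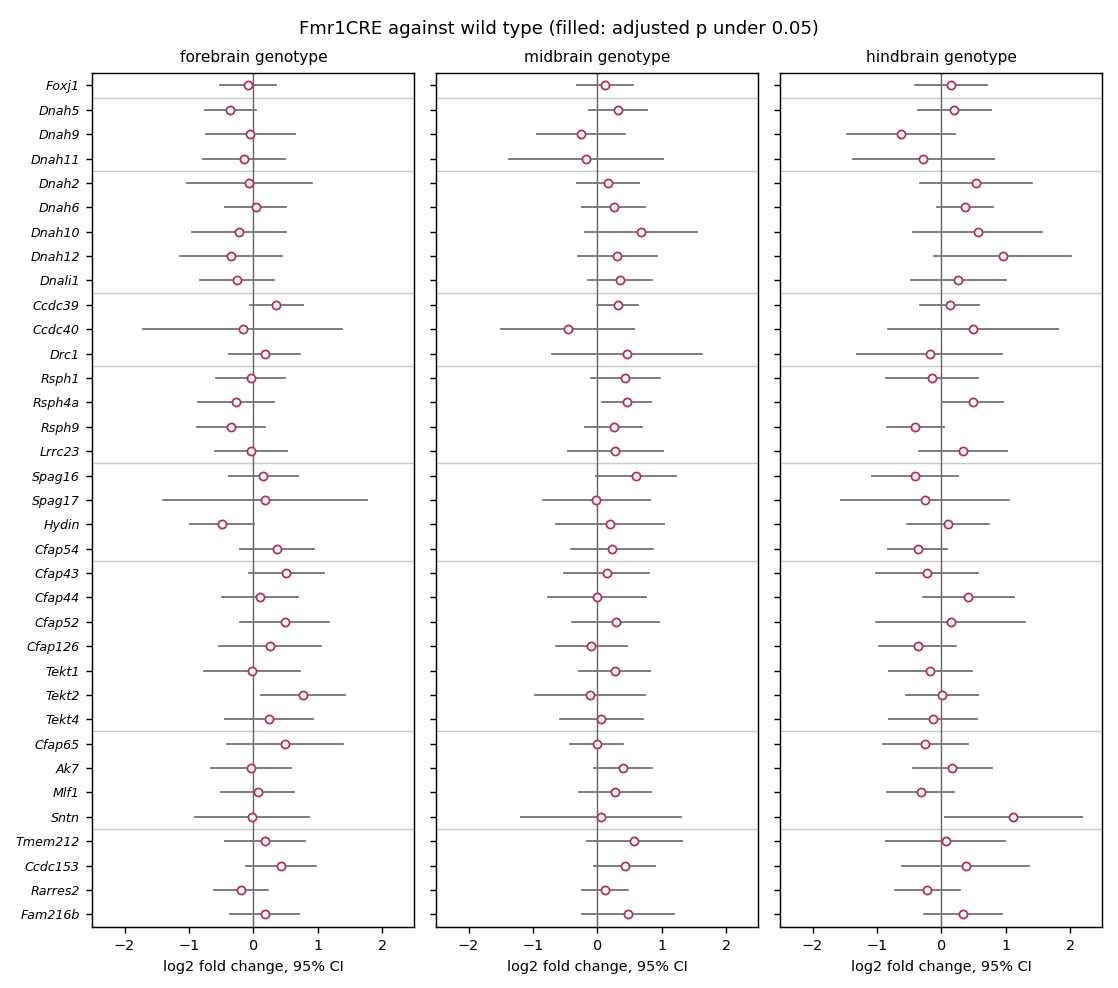
Log2 fold change of Fmr1CRE against WT (x axis, 95% confidence intervals) for each gene (rows) in forebrain, midbrain and hindbrain; a filled point would mark an adjusted p under 0.05, and there is none. The midbrain panel holds 28 points to the right of 0, the forebrain panel 17 and the hindbrain panel 20.

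In forebrain 17 of 35 members had a positive fold change, with a median of -0.03 against 0.00 over all genes, and that median changed sign in several alternatives. Groups did not overlap for *Tekt2*, higher in Fmr1CRE (4.89% of genes), and for *Dnah5* and *Hydin*, lower (5.34% of genes). *Tekt2* was at 2.33, 2.22 and 1.79 CPM in Fmr1CRE and at 1.10, 1.13 and 1.56 CPM in WT (0.77 ± 0.28, unadjusted p = 0.0256, adjusted p = 0.806, edgeR). *Hydin* was at 2.49, 2.88 and 3.15 against 4.54, 3.34 and 4.34 CPM (-0.49 ± 0.22, adjusted p = 0.806, edgeR). *Dnah5* was at 5.18, 5.68 and 6.85 against 8.06, 7.33 and 7.74 CPM (-0.36 ± 0.17, adjusted p = 0.806, edgeR). Replicate 3, the last value of each set, is the one whose labels are uncertain. Without it in both genotypes the differences were 1.08, -0.50 and -0.45 for *Tekt2*, *Hydin* and *Dnah5* (adjusted p = 0.288, 0.481 and 0.412, edgeR).

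In hindbrain 20 members were positive, with a median of 0.10 against -0.01 over all genes. That median was -0.08 without WT replicate 3, the library with the lowest members, and -0.10 without replicate 3 of both genotypes. Members without overlap were *Dnah6*, *Rsph4a* and *Sntn*, higher in Fmr1CRE (5.03% of genes), and *Rsph9* and, by the scaling within hindbrain, *Cfap54*, lower (5.87% of genes). *Rsph4a* was at 3.56, 4.22 and 4.05 CPM in Fmr1CRE and at 2.82, 2.97 and 2.53 CPM in WT (0.49 ± 0.20, unadjusted p = 0.0410, adjusted p = 0.875, edgeR). *Sntn* was at 0.854, 0.541 and 0.422 against 0.334, 0.331 and 0.158 CPM (1.12 ± 0.46, adjusted p = 0.875, edgeR), on few counts. *Rsph9* was at 4.98, 5.49 and 4.93 against 7.73, 6.87 and 5.62 CPM (-0.40 ± 0.19, adjusted p = 0.875, edgeR). Only 2 of 19 choroid plexus markers were positive in hindbrain (median -0.26, 0 called), with sums of 1514, 1467 and 1489 CPM in Fmr1CRE and 3395, 2742 and 984 CPM in WT.

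Whether genotype acted differently by region was tested as an interaction over all 18 libraries, a fit in which the 3 regions of each mouse count as independent samples. It called 0 members and 0% of 20363 genes (edgeR), with 3 members and 1535 genes at an unadjusted p under 0.05, and DESeq2 called 52 genes and 0 members. The 3 were *Rsph4a*, *Spag16* and *Dnah5* (unadjusted p = 0.0205, 0.0353 and 0.0380, adjusted p = 0.660 each, edgeR). *Rsph4a* had log2 fold changes of -0.27, 0.46 and 0.49 in forebrain, midbrain and hindbrain, and *Spag16* of 0.16, 0.60 and -0.41. *Dnah5* had -0.36, 0.32 and 0.20, with Fmr1CRE below WT in all forebrain libraries and above in all midbrain libraries, where the nearest values were 7.57 and 7.49 CPM. Of further motile cilium genes 0 of 77, 77 and 74 tested were called, with medians of 0.05, 0.12 and -0.03 in forebrain, midbrain and hindbrain. The regulators of multiciliated cells had 0 called, with medians of 0.15, 0.05 and -0.18, and genes of intraflagellar transport and the primary cilium 0, with medians of 0.05, 0.04 and -0.04.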

How the data were processed

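RNA was measured in 18 libraries of 3 brain regions from 3 Fmr1CRE and 3 WT mice. The authors quantified transcripts with salmon (0.14.0 in the submitters' processing notes, with DESeq2 1.30.1 and the mm10 build) in the bcbio_nextgen workflow and summed them per gene. The deposited gene counts are whole numbers. In every library at least 99.6% of genes with 50 or more counts lay within 2% of length-scaled TPM, so differences in transcript length between libraries had been corrected before rounding. Deposited expected counts and TPM values per transcript were used pooled over the 18 sets, since the record and the name of a set named the same library in 2 of 18 only. Deposited log2 values after variance stabilization were not used here. Identifiers without a symbol, 105 in number, held 0.0438% of counts.

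Genotypes were compared within a region and regions over all 18 libraries with edgeR 4.0.16 (R 4.3.3), using TMM scaling, its default low-count filter and quasi-likelihood tests, with p adjusted by Benjamini-Hochberg over all genes tested and called at 0.05. The scripts were tested on simulated counts, where most, not all, of the changes put in were recovered. Those changes were larger than any member's genotype difference, so their recovery does not measure the power for the members. Exact tests used scipy 1.17.1. The members and all lists were chosen with earlier results of these data known. Genes given by their libraries' values were *Foxj1*, the 5 members furthest apart in each direction between regions among those called, and the 3 with the smallest p in each genotype test and the interaction; the most counted gene stands for each other list, and further genes are named to complete a group or for a value seen. Alternatives were other scalings, filters, DESeq2 1.42.0, a replicate block, 1 fit of all libraries, WT alone and leaving out libraries, mice or replicate 3. Between regions and in the interaction the block was the mouse. Same-numbered libraries of the 2 genotypes had correlations of -0.12 to 0.07 in their deviations. The regions of a mouse are paired by the mouse number in the titles, and their correlations also lay around 0 (-0.17 to 0.18). These correlations therefore cannot show whether the replicate numbers pair the genotypes, and genotypes were compared without a pairing, except in the replicate block. The length classes, the limit in the check of the replicate 3 mice (3 log2 units, after 2), the check of *Fmr1* and the choice of printed promoters were made after the data were seen.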

Additional observations from a re-analysis of the deposited data

Results flagged for a closer look

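The 6 libraries of a region, taken over both genotypes, were checked for a single library far from the other 5 (Dixon's criterion) in 105 sets of 35 members and 3 regions. It marked 8 sets, where chance alone marks about 1 in 20. Fmr1CRE hindbrain replicate 3 was marked for 2 inner arm heavy chains, *Dnah10* at 4.85 CPM against 1.65 to 2.10 CPM in the other hindbrain libraries and *Dnah12* at 4.22 CPM against 1.02 to 1.66 CPM. In forebrain the same genes were marked in other libraries, *Dnah10* in WT replicate 3 at 8.56 CPM against 3.70 to 5.15 CPM and *Dnah12* in WT replicate 2 at 5.36 CPM against 2.16 to 3.24 CPM. *Dnah11* stood at 17.3 CPM in WT hindbrain replicate 1 against 3.68 to 8.27 CPM elsewhere in hindbrain. *Spag16* was marked in Fmr1CRE forebrain replicate 3, at 2.64 CPM against 1.94 to 2.11 CPM, and in WT hindbrain replicate 2, at 3.44 CPM against 1.80 to 2.41 CPM. The single low value was that of *Ccdc153* in WT hindbrain replicate 3, at 1.58 CPM against 4.83 to 6.13 CPM.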

How the results depend on the processing

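In the genotype comparisons and the interaction the count of members called was 0 under every alternative listed here. Signs of values near 0 were not stable. The members' median log2 fold change in forebrain (-0.03) was 0.010 scaled to total counts, 0.050 with the replicate block and 0.088 without replicate 3 of both genotypes, and ran from -0.051 to 0.21 with a library left out. In hindbrain it was -0.10 without replicate 3 of both genotypes and ran from -0.081 to 0.20. For *Foxj1* the genotype difference was -0.19 to 0.11 (forebrain), -0.037 to 0.26 (midbrain) and -0.055 to 0.28 (hindbrain) with a library left out, and without replicate 3 of both genotypes it was -0.0069 in midbrain and -0.00059 in hindbrain.

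Forebrain against hindbrain, members higher numbered 11 without replicate 3 of both genotypes, 9 in WT alone and 12 to 18 with a mouse left out, and members lower 5 with total counts, 3 with at least 10 counts in every library, 3 without replicate 3 and 1 to 3 with a mouse left out. *Foxj1* passed at -0.48 with total counts and -0.62 without replicate 3 of both genotypes, and ran from -0.53 to -0.21 with a mouse left out. Forebrain against midbrain, members higher numbered 3 with total counts, 3 without a filter, 8 by DESeq2 and 2 with the mouse as a block. They numbered 0 in WT alone and 1 to 7 with a mouse left out. In that comparison *Foxj1* was 0.035 in WT alone and -0.24 to 0.025 with a mouse left out. Midbrain against hindbrain, 3 members were higher in WT alone, 2 to 6 were lower with a mouse left out, and the median was -0.012 without replicate 3 of both genotypes and -0.027 to 0.20 with a mouse left out. The cause was not tested. The mouse as a block also took the calls of *Cfap65*, *Rsph1* and *Rarres2* (forebrain against midbrain) and *Spag16* (midbrain against hindbrain), and no other call of a named member. The 21 region calls of named members were recomputed 293 times in all, and 49 of these values lost the call and 0 changed sign. The losses fell most on forebrain against midbrain, with *Rsph1* and *Rarres2* lost in 9 and *Cfap65* in 7 of 14 alternatives. Genotype differences of named members were not called to begin with, so their alternatives say nothing of stability. Counts of called genes by DESeq2 (31, 62 and 59) exceeded those by edgeR (0, 1 and 0), and the interaction had 131 genes and 0 members without replicate 3 of both genotypes. Counting depth limits *Sntn* and *Spag17* most, at 4 to 30 and 5 to 73 counts.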

Other observations

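Among the regulators of multiciliated cells, *Myb* was at 17.9 CPM in Fmr1CRE midbrain replicate 3 and at 0.530 to 2.09 CPM in the other 17 libraries, a value chosen after it was seen. *Foxn4* had 0 counts in 14 of 18 libraries and *Mcidas* lay between 0.0407 and 0.329 CPM. *Gmnc*, which encodes geminin coiled-coil protein and starts the multiciliated programme, was at 1.06 to 2.33 CPM in forebrain, 1.06 to 1.85 CPM in midbrain and 2.02 to 4.66 CPM in hindbrain. The midbrain and hindbrain ranges did not overlap, and the forebrain and hindbrain ranges did.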
